A study of Mus musculus with 59 samples.

Results

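*Ebf1*, *Epha7*, *Ildr2*, *Nkx1-2* and *Col4a6* had less RNA in mouse epiblasts without G9a, the protein made from *Ehmt2*. Scaled to library size, the main transcript of each was lower in all 4 knockouts than in all 4 controls. For *Ebf1* this was narrow in knockout 4, at 83.2% of control 4. The 2 shorter coding forms of *Ebf1* were higher in knockout 4 than in control 4. In epiblasts without EZH2 the mean level of none of the 5 main transcripts was lower. The means of *Nkx1-2* and *Ildr2* stood 9.78-fold and 5.06-fold above their controls, with 3 epiblasts per group. Neither passed the threshold after adjustment in edgeR (adjusted p 0.148 for both). The members are 5 of the 22134 genes with a listed transcript. Members were taken by gene symbol, with all listed transcripts that carry the symbol in the annotation used. They had been chosen by their log2 fold changes in the *Ehmt2* cross, as the largest decreases in an earlier fit of these same counts. The values of the 5 genes in that cross are therefore given as a description, with no test. The 5 were tested only in the *Ezh2* cross, whose embryos played no part in the choice, while their relatives and neighbours were tested in both crosses.

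RNA-seq was carried out on single epiblasts of mouse embryos at E6.25, just before gastrulation, from matings of heterozygous parents of mixed background. The *Ehmt2* cross gave 4 knockouts (genotype G9a-/-) and 4 controls (labelled G9a+/+) from 4 litters, and the *Ezh2* cross gave 3 knockouts (Ezh-/-) and 3 controls (labelled Ezh+/+) from 3 litters. For both crosses the study describes the controls as wild-type or heterozygous, which the labels do not separate. No embryo was treated. The *Ehmt2* allele derived from a published conditional allele and those mice were crossed with a *Pou5f1*-driven EGFP reporter line, so alleles and lines differ between the crosses and each cross was fitted on its own. Nothing says which embryos shared a litter, so p-values measure the spread between these epiblasts.

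G9a is a histone methyltransferase that deposits H3K9me2, a mark of repressed chromatin, and EZH2 is the catalytic subunit of the Polycomb complex that deposits H3K27me3. The epiblast is the pluripotent tissue that forms the whole fetus, and the genes described here include regulators and surface proteins that are mostly used later, in caudal, neural, blood and epithelial tissues.

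The 250 bases before the annotated start are shown for 4 of the 5 genes, as a description of starts that differ in CpG content. The sequences are from RefSeq on GRCm38.p6, they are written 5′ to 3′ on the strand of the gene, and capitals mark each CpG dinucleotide. The *Epha7* window is chr4:28812881-28813130 on the plus strand, the *Ildr2* window chr1:166253889-166254138 on the plus strand, the *Nkx1-2* window chr7:132599638-132599887 on the minus strand and the *Col4a6* window chrX:141474077-141474326 on the minus strand.
Epha7: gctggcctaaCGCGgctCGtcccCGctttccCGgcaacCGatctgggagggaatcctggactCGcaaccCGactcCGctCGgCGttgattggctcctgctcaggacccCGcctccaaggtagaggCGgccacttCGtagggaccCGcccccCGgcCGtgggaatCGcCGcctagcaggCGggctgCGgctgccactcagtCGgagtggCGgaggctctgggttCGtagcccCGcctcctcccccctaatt
Ildr2: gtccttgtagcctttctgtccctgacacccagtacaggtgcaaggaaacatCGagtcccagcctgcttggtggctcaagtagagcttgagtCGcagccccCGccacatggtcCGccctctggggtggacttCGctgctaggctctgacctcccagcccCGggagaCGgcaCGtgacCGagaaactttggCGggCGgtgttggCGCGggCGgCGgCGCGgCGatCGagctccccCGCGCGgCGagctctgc
Nkx1-2: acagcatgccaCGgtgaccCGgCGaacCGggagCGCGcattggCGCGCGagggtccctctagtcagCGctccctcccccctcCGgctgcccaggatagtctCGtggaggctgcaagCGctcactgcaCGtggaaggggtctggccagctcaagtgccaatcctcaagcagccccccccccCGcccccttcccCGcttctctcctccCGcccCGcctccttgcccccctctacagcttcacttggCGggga
Col4a6: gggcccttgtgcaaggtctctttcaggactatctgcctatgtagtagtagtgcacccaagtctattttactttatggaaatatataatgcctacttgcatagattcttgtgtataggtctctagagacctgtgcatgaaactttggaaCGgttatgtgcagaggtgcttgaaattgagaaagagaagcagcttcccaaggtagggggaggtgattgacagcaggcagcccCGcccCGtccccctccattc
The *Epha7* window held 25 CpGs, *Ildr2* 23 and *Nkx1-2* 19, against a median of 6 over 32851 RefSeq windows of the same length, and each of the 3 windows had a GC content between 66.8% and 69.6%. The *Col4a6* window held 3 CpGs, and its GC content was 47.6% against a median of 52.4%. The motif GGGCGG, searched on both strands, was present in all 4 windows and in 32.7% of all windows. CCAAT was in the windows of *Epha7* and *Nkx1-2* (33.8% of all windows), CACGTG in those of *Ildr2* and *Nkx1-2* (6.0%). TATAAA (12.4% of all windows) and the palindromic EBF motif (0.8%) were in none of the 4. The RefSeq window next to *Ebf1* lies inside the annotated exons of its coding transcripts and is not shown.

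The total count per epiblast was 30161171 to 68464895 over all transcripts; a read shared by several transcripts is counted for each. The fourth control and the fourth knockout of the *Ehmt2* cross, which are set against each other alone in the column headings of the study's source table although its methods name all controls, stood apart: the chi-square per degree of freedom between either of them and another epiblast of its group was 146 to 192, against 16.7 to 31.0 between the others. *Ehmt2* was below every control in each of its knockouts (3.29 to 9.79 CPM, the count scaled to library size, against 10.5 to 34.1 CPM) and *Ezh2* in each of its own (11.4 to 16.0 against 51.6 to 108 CPM). The summed level of 8 epiblast markers was 1553 to 2305 CPM in the *Ehmt2* knockouts and 2618 to 2975 CPM in their controls. For 8 extraembryonic ectoderm markers it was 39.5 to 303 against 29.8 to 138 CPM, and 3 of these 8 genes were called higher. For 10 visceral endoderm markers it was 1.52 to 56.8 against 2.08 to 46.4 CPM in the *Ehmt2* cross, and 22.9 to 2546 against 11.1 to 1120 CPM in the *Ezh2* cross. For 4 decidua markers it was 3.71 to 36.0 against 2.49 to 16.0 CPM and 2.62 to 24.2 against 1.80 to 23.5 CPM, and no marker of any list was at 0 in all 14 epiblasts. The part of these differences in the results that follow was not tested. In whole epiblasts, fewer cells that express a gene and less RNA per cell cannot be told apart.

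**Figure D1:**
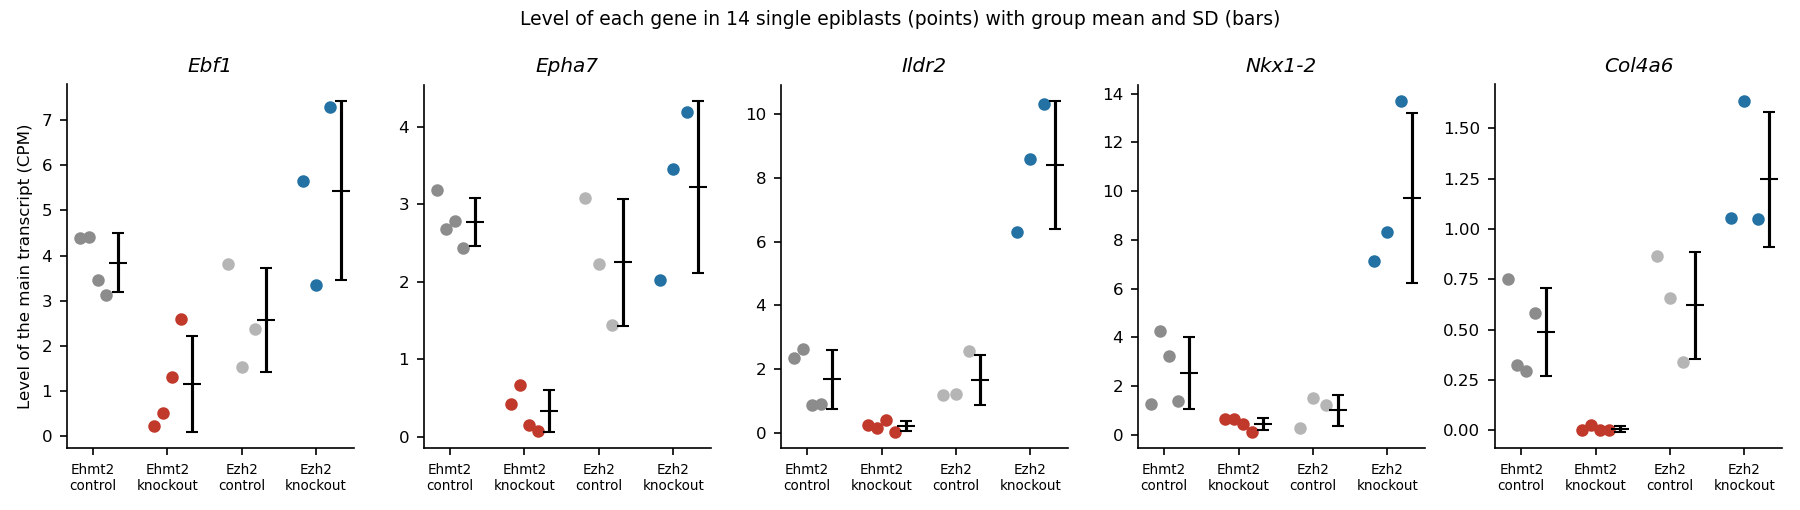
Level of the main transcript of each gene, in CPM on a linear axis, in the 14 single epiblasts (points, by group) with the group mean and SD (bars). All 4 *Ehmt2* knockouts lie below all 4 *Ehmt2* controls for each gene, and the 3 *Ezh2* knockouts lie above the 3 *Ezh2* controls for *Ildr2*, *Nkx1-2* and *Col4a6* but not for *Ebf1* and *Epha7*.

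The plot of levels gives the main transcript of each gene, the one with the highest mean count over the 14 epiblasts. For *Ebf1*, *Epha7*, *Ildr2* and *Nkx1-2* the group means fell in the same order, with *Ezh2* knockouts highest, then *Ehmt2* controls, *Ezh2* controls and *Ehmt2* knockouts. For *Col4a6* the 2 control groups changed places. Every *Ehmt2* knockout was below every *Ehmt2* control for all 5 genes, as for 2.64% of all genes tested, a difference that the choice of the genes used. Every *Ezh2* knockout was above every *Ezh2* control for 3 of the 5, as for 7.66% of all genes tested. The *Ehmt2* controls and *Ezh2* controls overlapped for all 5 genes. The *Ehmt2* knockouts did not overlap the next group in the order for *Epha7*, *Ildr2* and *Col4a6*, and they overlapped the *Ezh2* controls for *Ebf1* and *Nkx1-2*. Per kilobase of transcript, the *Ehmt2* control level was highest for *Nkx1-2* (0.777 ± 0.450 CPM per kb, SD, n = 4) and *Ebf1* (0.642 ± 0.109), followed by *Epha7* (0.411 ± 0.0458), *Ildr2* (0.205 ± 0.112) and *Col4a6* (0.0733 ± 0.0329). These are low levels: in the same epiblasts *Ehmt2* stood at 4.61 ± 2.84 CPM per kb.

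*Ebf1* encodes early B-cell factor 1, a transcription factor known for committing blood progenitors to the B lymphocyte lineage and also active in fat and nervous tissue. The gene spans chr11:44617317-45008091 on the plus strand (GRCm38). It has 7 listed transcripts that matched the annotation used, 3 of them protein coding. The deposited counts of the main coding transcript (ENSMUST00000081265, 5981 nt) were 175, 205, 129 and 167 in *Ehmt2* controls 1 to 4 and 8, 18, 50 and 156 in knockouts 1 to 4. Knockouts 1 to 3 were far below their controls, at 5.61%, 12.8% and 32.0% of the mean level of controls 1 to 3, whereas knockout 4 was at 83.2% of the level of control 4. The fitted log2 fold change was -1.99 ± 0.56 (SE), and -2.56 without knockout 4.

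The other coding transcripts of *Ebf1* differed from this pattern in knockout 4. ENSMUST00000101326 had counts of 143, 138, 89 and 69 in the controls and 7, 16, 38 and 156 in the knockouts. ENSMUST00000109268 had counts of 126, 85, 56 and 47 in the controls and 6, 14, 11 and 155 in the knockouts. In both, knockouts 1 to 3 were below every control and knockout 4 was above all controls by count and above control 4 by level. A processed transcript of the 5′ part of the gene (ENSMUST00000149997, 6 exons) had counts of 103, 102, 88 and 98 in the controls and 5, 6, 10 and 7 in the knockouts. This form was low in all 4 knockouts, at 6.02% to 11.0% of its controls, with a log2 fold change of -3.68 ± 0.46. Of the other listed transcripts, ENSMUST00000135993 had 21, 7, 19 and 23 counts in the controls and 2, 1, 3 and 0 in the knockouts, and the remaining 2 had at most 1 count in any knockout.

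The position of the reads in knockout 4 can be narrowed from the gene models. The 3 coding transcripts have 16 exons each and differ mainly in the length of the last exon, which is 3375, 813 or 279 nt. The long form had 32, 67, 40 and 98 more counts than the middle form in controls 1 to 4, and 1, 2 and 12 more in knockouts 1 to 3. In knockout 4 it had 0 more, with 156 counts in both, so no read was counted on the distal 2562 nt of the last exon, where control 4 had 98 of its 167 counts. At least 148 of the 155 counts of the short form in knockout 4 lay outside the exons of the 5′ form, which had 7. A transcript of 3 exons that contains coding exon 10 (ENSMUST00000140822) had 12, 13, 3 and 20 counts in the controls and 0 in knockout 4. The *Ebf1* reads of knockout 4 were thus confined to a part of the coding exons, and reads of the 5′ form and of the distal last exon were as low there as in knockouts 1 to 3.

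**Figure D2:**
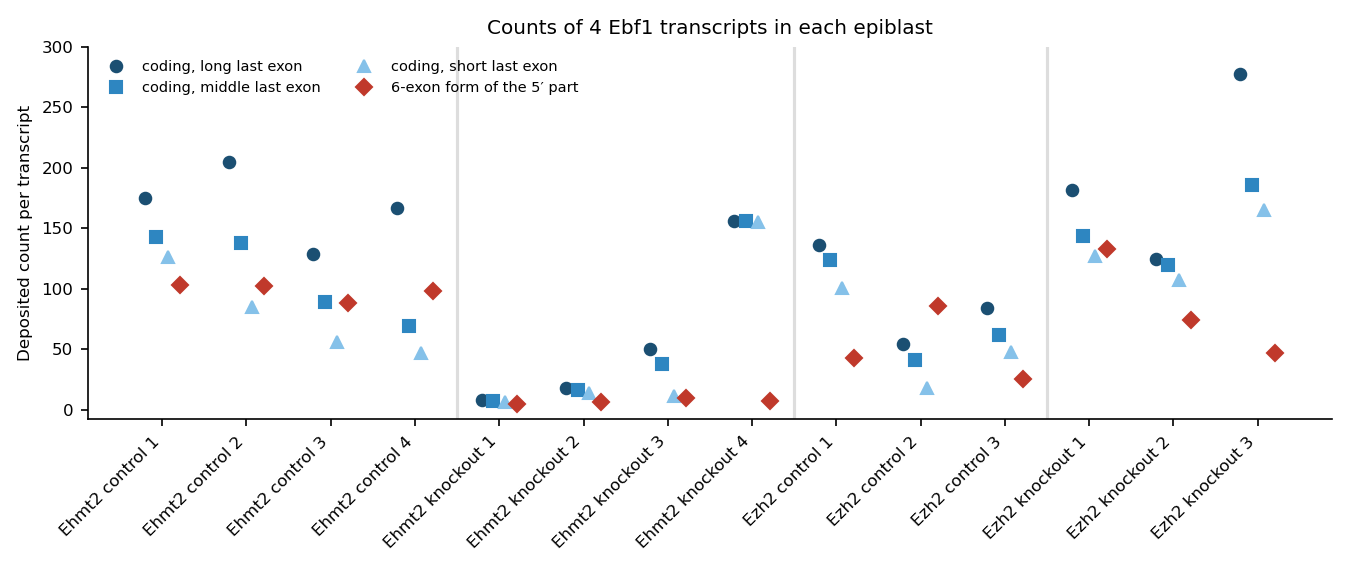
Deposited counts of 4 *Ebf1* transcripts in each of the 14 epiblasts: the 3 coding forms (circles, squares and triangles) and the 6-exon form of the 5′ part (diamonds). In *Ehmt2* knockout 4 the 3 coding forms have 156, 156 and 155 counts while the 5′ form has 7; in knockouts 1 to 3 all forms have 50 counts or fewer.

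In the *Ezh2* cross *Ebf1* was not lower. The main transcript had 136, 54 and 84 counts in the controls and 182, 125 and 278 in the knockouts. The groups overlapped, since knockout 2 lay below control 1. The mean level was 5.43 ± 1.98 CPM in the knockouts and 2.58 ± 1.15 CPM in the controls (SD, n = 3 each, 2.11-fold). The log2 fold change was 1.08 ± 0.40, with an unadjusted p of 0.0226 and an adjusted p of 0.622 in edgeR's quasi-likelihood test. The 95% interval was -0.04 to 2.20. It used 4 degrees of freedom, fewer than the test, so it includes 0 although the unadjusted p is under 0.05. The 5′ form, which was low in every *Ehmt2* knockout, had 43, 86 and 25 counts in the *Ezh2* controls and 133, 74 and 47 in the knockouts, and the groups overlapped in part: knockout 1 was above every control and control 3 below every knockout.

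*Nkx1-2* encodes a homeobox transcription factor known as a marker of the caudal epiblast and of the preneural tissue that forms from it. It is a small gene (chr7:132594878-132599637, minus strand) with 1 listed transcript, ENSMUST00000054562. Its counts were 50, 199, 121 and 74 in the *Ehmt2* controls and 22, 22, 16 and 7 in the knockouts. Every knockout was below every control, at 8.42% to 21.8% of the controls of its set, and the log2 fold change was -2.63 ± 0.50. Control 2, with the highest *Nkx1-2* count, also had the highest summed level of 7 primitive streak and mesoderm markers, 83.9 CPM, while the other controls had 4.66 to 13.4 CPM and the knockouts 5.12 to 10.3 CPM. Without control 2 the log2 fold change of *Nkx1-2* was -2.41.

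*Nkx1-2* was the gene with the largest difference of the 5 in the *Ezh2* cross, in the opposite direction. It had 10, 52 and 43 counts in the *Ezh2* controls and 230, 311 and 522 in the knockouts. The knockouts were far above the controls with no overlap, at 9.73 ± 3.49 against 0.994 ± 0.633 CPM (SD, n = 3 each), a 9.78-fold difference of means. The log2 fold change was 3.29 ± 0.52 (95% interval 1.85 to 4.73, unadjusted p 6.79e-05), and it missed the threshold after adjustment over all 50855 transcripts tested (adjusted p 0.148, edgeR). DESeq2 gave an adjusted p of 1.09e-09, and edgeR without a filter on low counts gave 0.0352. Over the *Ezh2* alternatives the adjusted p ran from 1.09e-09 to 0.592, the highest when knockout 3 was left out. By p, *Nkx1-2* ranked 8th among the 14010 genes tested. The summed streak markers overlapped in this cross (20.2 to 61.1 CPM in the knockouts and 9.21 to 72.7 CPM in the controls).

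*Epha7* encodes a receptor tyrosine kinase of the Eph family, which binds membrane-bound ephrin-A ligands on neighbouring cells and guides cell sorting and axon growth. It lies at chr4:28813131-28967499 on the plus strand and has 8 listed transcripts, 4 of them protein coding. The full-length transcript (ENSMUST00000029964, 6746 nt) had 127, 125, 104 and 130 counts in the *Ehmt2* controls and 15, 23, 6 and 5 in the knockouts. Of the 5 genes it had the most even controls, and every knockout was far below them, at 3.42% to 23.1% of the controls of its set. The log2 fold change was -3.22 ± 0.55.

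The second 17-exon transcript of *Epha7* (ENSMUST00000108191) had nearly identical counts, 15, 23, 6 and 5 in the knockouts, because the forms share almost all exons. A 10-exon form (ENSMUST00000080934) had 57, 52, 4 and 72 counts in the controls and 0, 16, 0 and 0 in the knockouts. Here control 3 was low as well, so knockout 2 overlapped the controls. ENSMUST00000149030, which ends early in the gene with a long last exon, had 39, 46, 11 and 70 counts in the controls and 0, 10, 0 and 0 in the knockouts. The 3 shortest transcripts were at 0 counts in all 4 knockouts and had 1 to 52 counts in the controls. They did not pass the filter on low counts. With them, all 8 forms were lower in the knockouts and 6 of the 8 did not overlap. Over all transcripts that passed the filter, 2.54% had every knockout below every control. The forms share reads, and the choice of the gene used this contrast.

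In the *Ezh2* cross the full-length *Epha7* transcript had 110, 78 and 51 counts in the controls and 65, 129 and 160 in the knockouts. The groups overlapped. The log2 fold change was 0.52 ± 0.40 (adjusted p 0.852, edgeR) with a 95% interval of -0.60 to 1.64.

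*Ildr2* encodes a membrane protein of the angulin family, whose members recruit tricellulin to the corners where 3 epithelial cells meet. It lies at chr1:166254139-166316823 on the plus strand, and 1 of its annotated transcripts was listed (ENSMUST00000111416, 8251 nt). Its counts were 94, 122, 33 and 48 in the *Ehmt2* controls and 9, 5, 15 and 2 in the knockouts. The controls themselves spanned a wide range, with controls 1 and 2 well above 3 and 4, yet the highest knockout was below the lowest control. The knockouts stood at 3.71% to 20.1% of the controls of their sets, and the log2 fold change was -3.21 ± 0.63.

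The *Ezh2* knockouts had more *Ildr2* RNA than any other group. Their counts were 203, 321 and 393, and those of the *Ezh2* controls 42, 43 and 91. Every knockout was above every control, and also above every *Ehmt2* control by level (6.31 to 10.3 against 0.882 to 2.62 CPM). The mean was 8.41 ± 2.01 against 1.66 ± 0.80 CPM (SD, n = 3 each, 5.06-fold), with a log2 fold change of 2.34 ± 0.37 and a 95% interval of 1.32 to 3.36. The unadjusted p was 6.97e-05 and the adjusted p 0.148 in edgeR, 5.64e-07 in DESeq2 and 0.0491 in edgeR without a filter on low counts. Over the alternatives the adjusted p ran from 5.64e-07 to 0.592, again the highest without knockout 3. *Ildr2* ranked 10th by p among the 14010 genes. An annotated antisense gene within *Ildr2* (5330438I03Rik) had 6, 15 and 24 counts in the *Ezh2* knockouts and 3, 2 and 0 in the controls; whether the counting used strand is not given in the sources used here, so reads of the 2 genes cannot be told apart where they overlap.

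*Col4a6* encodes the alpha6 chain of type IV collagen, which assembles with alpha5 chains into networks of epithelial basement membranes. The gene lies at chrX:141165403-141474076 on the minus strand and has 2 listed transcripts. The coding transcript (ENSMUST00000101205, 6648 nt) had 30, 15, 11 and 31 counts in the *Ehmt2* controls and 0, 1, 0 and 0 in the knockouts. It was near the floor in the knockouts. For a count of 0, the 1-sided 95% upper limit from counting error is about 3 counts. This corresponds to 0.0501 to 0.0868 CPM in these 4 libraries, and the controls were at 0.294 to 0.752 CPM. Summed over the groups, 1 count in the knockouts stood against 87 in the controls, a ratio of levels of 0.0121 with a 95% counting interval of 0.000304 to 0.0695 (Clopper-Pearson, counting error only). The interval pools reads over embryos and leaves out the spread between them. It is no test, since the gene was chosen on this contrast. The fitted log2 fold change of -5.75 ± 1.09 depends on how the fit treats zeros.

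*Col4a6* had 31, 23 and 12 counts in the *Ezh2* controls and 34, 61 and 40 in the knockouts. By level the 3 knockouts (1.05 to 1.64 CPM) were above the 3 controls (0.340 to 0.868 CPM) with no overlap. The log2 fold change was 1.00 ± 0.56, an adjusted p of 0.785 in edgeR and a 95% interval of -0.56 to 2.56. The second listed transcript, a processed form (ENSMUST00000137051), had 2 counts in 1 *Ehmt2* control, none in the other *Ehmt2* epiblasts, and up to 26 counts in the *Ezh2* cross.

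Over all 5 genes, 19 listed transcripts matched the annotation, and 12 of them passed the filter on low counts in the *Ehmt2* cross. All 12 had a log2 fold change below 0, from -5.75 to -1.64, as did 51% of all 49872 transcripts tested. Counting also those that did not pass, every knockout was below every control in 14 of the 19. Over all transcripts that passed the filter the share was 2.54%, so the 2 shares are not counted alike. Some of the 14 had as little as 1 count in a control against 0 in the knockouts. The choice of the genes used this contrast, and the transcripts of a gene share reads. The exceptions were the 2 shorter coding forms of *Ebf1*, because of knockout 4, the 2 forms of *Epha7* with 10 exons, because of knockout 2 and a low control 3, and the second *Col4a6* transcript. The decrease was seen in all 4 embryos for every main transcript and weakest in knockout 4 for *Ebf1*.

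**Figure D3:**
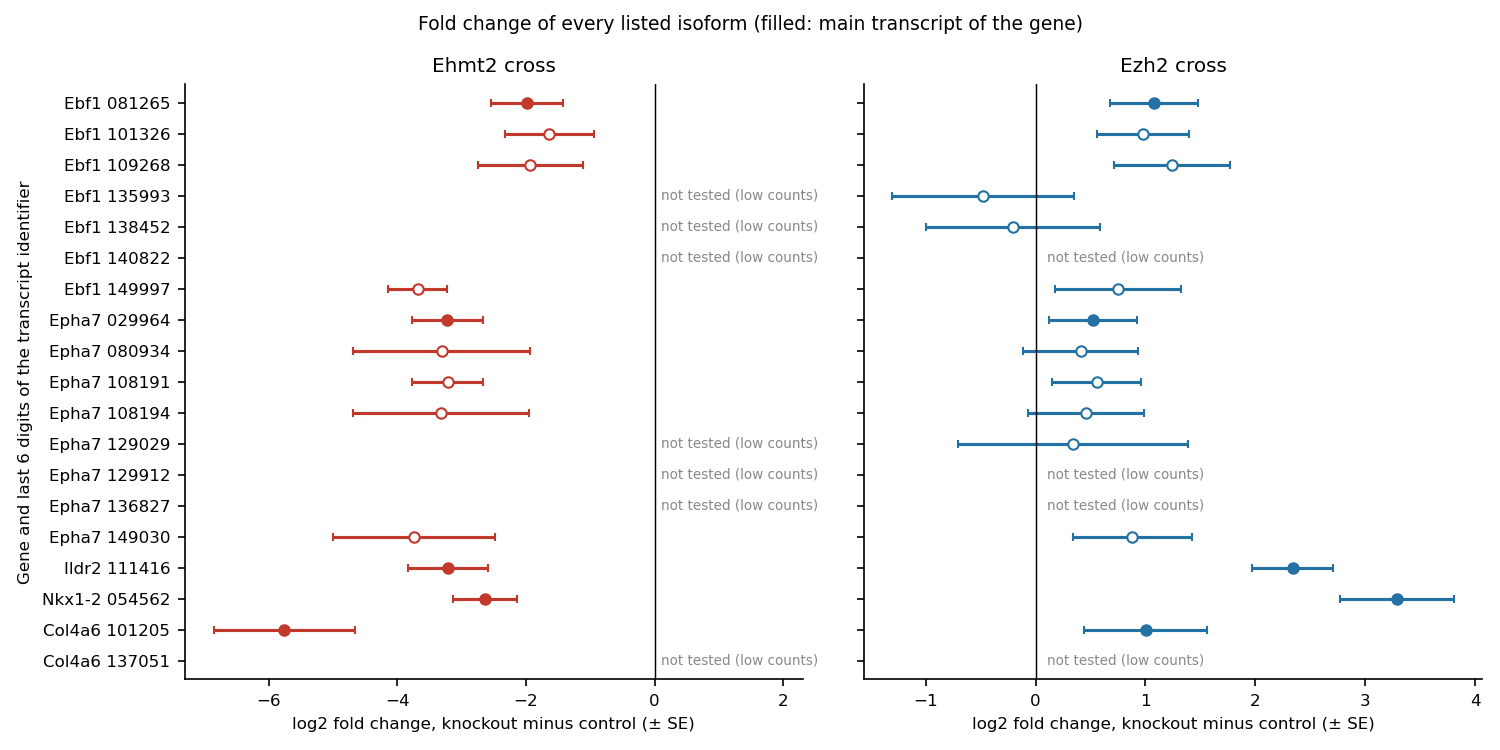
Log2 fold change, knockout minus control, with its SE for each of the 19 listed transcripts in the *Ehmt2* cross (left) and the *Ezh2* cross (right); filled points are the main transcripts, and transcripts with low counts were not tested. All 12 tested values on the left lie below 0, from -5.75 to -1.64, and 13 of the 15 on the right lie above 0.

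A transcript was called lower at an adjusted p under 0.05 and a log2 fold change under -1.4, which 29 of the 49872 transcripts were (0.0581%; 0.441% were called higher), and 0.0655% of main transcripts. Each gene was ordered by the largest decrease among its transcripts past these thresholds. *Ebf1* entered this order by its 5′ form (-3.68), since its main transcript (-1.99) was not past them. The values at the edge of the choice were -2.63 for *Nkx1-2*, the last of the 5 in the order, and -2.59 for *Arhgap45*, the next gene outside, which had 148, 177, 160 and 223 counts in the controls and 20, 40, 33 and 16 in the knockouts. *Bcan*, which encodes a proteoglycan of the nervous system and is not among the 5, had 41, 28, 15 and 16 counts in the controls and 0 in all 4 knockouts, and it came first in the order here.

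In the *Ezh2* cross, 15 of the 19 transcripts passed the filter. Of these, 13 had a log2 fold change above 0, against 51.5% of all 50855 transcripts tested. The 2 below 0 were short processed forms of *Ebf1* (-0.47 ± 0.83 and -0.21 ± 0.79). Of the 15, 6 were forms of *Ebf1* and 6 of *Epha7*. Forms of a gene share reads, so the 15 are not independent of each other. Every knockout was above every control in 5 of the 15, 1 per gene, against 6.44% of all transcripts, and in none was every knockout below every control, against 6.68%. None of the 15 passed both thresholds in edgeR, in either direction, and neither did any transcript of any gene upwards (0% of 50855), while 6 did downwards (0.0118%). With no adjustment, 758 transcripts (1.49%) had p under 0.05 and a log2 fold change above 1.4, *Nkx1-2* and *Ildr2* among them, and DESeq2 called 153 (0.301%), again with both. The two-sided exact permutation test on CPM gave p = 0.1 for *Nkx1-2*, *Ildr2* and *Col4a6*, which is the smallest that 3 against 3 can give, 0.2 for *Ebf1* and 0.3 for *Epha7*. The decrease of the *Ehmt2* cross was not seen in the *Ezh2* cross for any of the 5 main transcripts.

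The relatives and partners of the 5 genes were taken from 8 lists, each gene by its main transcript, beside a median log2 fold change over all genes tested of 0.01 in the *Ehmt2* cross and 0.03 in the *Ezh2* cross. No gene of any list was called in the *Ezh2* cross by edgeR or DESeq2, other than *Nkx1-2* and *Ildr2* by DESeq2, where edgeR called 0% of genes higher and 0.00714% lower. Of the EBF family, *Ebf2*, *Ebf3* and *Ebf4* were almost absent, with group means of 0.00945 to 0.169 CPM and no test, so *Ebf1* was the EBF gene of these epiblasts. The EBF partners *Zfp423* and *Zfp521*, zinc-finger proteins that bind EBF factors, stood at 16.9 ± 3.9 and 10.4 ± 1.2 CPM in the *Ehmt2* knockouts (SD, n = 4) and 17.8 ± 3.2 and 14.3 ± 1.9 CPM in the controls. Neither was called (log2 fold changes -0.09 ± 0.20 and -0.45 ± 0.18).

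Of 14 Eph receptors, 11 were tested in the *Ehmt2* cross, and 10 of them had a log2 fold change below 0, with a median of -0.62. *Epha7*, chosen on this contrast, is among the 10, and no other receptor was called. *Ephb1*, a receptor for ephrin-B ligands, came closest: its counts were 101 to 273 in the controls and 36 to 65 in the knockouts, with a log2 fold change of -1.73 ± 0.40 (adjusted p 0.0915 in edgeR; 0.0030 in DESeq2, which called it and 0.385% of all transcripts lower, and 1.09% higher). *Ephb1* was also lower in each *Ezh2* knockout than in each control, unlike *Epha7*, with 130 to 158 counts in the controls, 30 to 86 in the knockouts and a log2 fold change of -1.25 ± 0.41 (adjusted p 0.568). Of 8 ephrins, the ligands, none was called in either cross. *Efnb2*, the ephrin-B2 ligand, stood at 61.0 ± 14.1 CPM in the *Ehmt2* knockouts and 31.5 ± 5.6 CPM in the controls (log2 fold change 0.95 ± 0.13, adjusted p 0.0054), under the fold that the call asks for.

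The other angulins *Lsr* and *Ildr1*, with *Marveld2* (tricellulin) and *Ocln* (occludin), stayed between -0.74 and 0.06 in the *Ehmt2* cross and between -0.27 and -0.01 in the *Ezh2* cross, and none was called. *Lsr* was at 42.1 ± 5.0 CPM in the *Ehmt2* controls and 44.4 ± 8.0 CPM in the knockouts (SD, n = 4). Of 15 caudal epiblast and streak genes, 13 were listed and 8 tested in the *Ehmt2* cross, with a median of -1.32 that includes *Nkx1-2* itself, and no other gene of the list was called. *T*, the brachyury gene of the streak, had 0 to 716 counts in the *Ehmt2* controls and 4 to 82 in the knockouts (-2.05 ± 1.21, adjusted p 0.548). *Fgf8* was at -0.60 ± 0.40 and *Wnt3*, which starts the streak, at 0.16 ± 0.60. *Cdx2*, a caudal homeobox gene that is also an extraembryonic ectoderm marker, was the farthest from 0 in the list and on the other side, with 0 to 20 counts in the *Ehmt2* controls and 0 to 228 in the knockouts (4.04 ± 1.03, adjusted p 0.132 in edgeR; DESeq2 called it higher). All 7 genes of this list tested in the *Ezh2* cross, *Nkx1-2* included, had a value above 0 (median 0.72), against 51.5% of all transcripts tested. Among them *T* was at 1.15 ± 0.54 (adjusted p 0.725, edgeR), and none was called. *Tbx6*, with too few counts to test there, went the other way, with 9 to 16 counts in the *Ezh2* controls and 0 to 8 in the knockouts.

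Of 6 collagen IV chains, *Col4a1* and *Col4a2*, the chains of the ubiquitous network, were the most abundant and were not lower: *Col4a1* stood at 13.6 ± 7.5 CPM in the *Ehmt2* knockouts and 11.9 ± 2.1 CPM in the controls (SD, n = 4). *Col4a5*, the partner chain of *Col4a6*, had 39, 35, 11 and 86 counts in the *Ehmt2* controls and 0, 4, 20 and 14 in the knockouts. Knockout 3 overlapped the controls, and the log2 fold change was -1.93 ± 0.90 (adjusted p 0.437). Its counts were 30, 8 and 4 in the *Ezh2* controls and 56, 13 and 89 in the knockouts (1.90 ± 0.86, adjusted p 0.716). None of 9 tested collagen-processing enzymes and chaperones was called in the *Ehmt2* cross. Of 7 basement membrane partners, *Nid1* (nidogen, which links laminin to collagen IV) was called higher, as were 0.786% of all genes, at 29.9 ± 19.2 against 4.4 ± 3.1 CPM (log2 fold change 3.01 ± 0.31, adjusted p 0.00155). *Nid1* is also made by extraembryonic endoderm, and the counts of its knockouts ran from 297 to 1747.

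**Figure D4:**
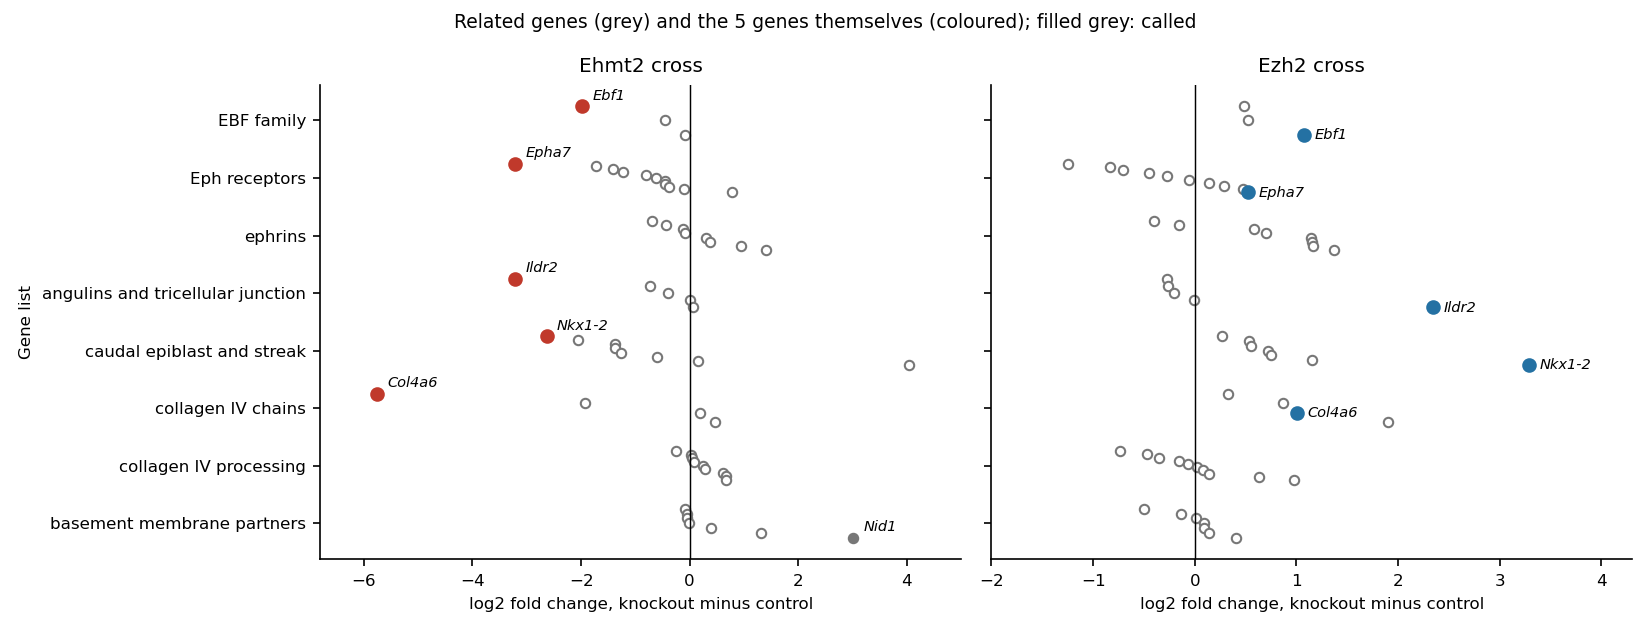
Log2 fold change, knockout minus control, of each tested gene of 8 related lists in the *Ehmt2* cross (left) and the *Ezh2* cross (right). The 5 genes are coloured and lie at the lower edge of their lists on the left; *Nid1*, the only related gene called, is filled in grey at 3.01.

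The 2 nearest listed genes on each side of each gene were examined to see whether a whole chromosome segment was lower. Of these 20 neighbours, 14 were tested in the *Ehmt2* cross, with a median log2 fold change of 0.03, and none was called by its main transcript. *Lhpp*, which encodes a phosphatase and lies 11.0 kb from *Nkx1-2*, was nearest to a call. Its main transcript had 214, 252, 242 and 678 counts in the *Ehmt2* controls and 76, 118, 102 and 106 in the knockouts, with no overlap (-1.49 ± 0.34, adjusted p 0.0841). All 5 *Lhpp* transcripts were below every control in every knockout, and 1 of the 4 tested was called lower (ENSMUST00000106170, -2.26 ± 0.45, adjusted p 0.0468). The main *Lhpp* transcript had 155, 116 and 108 counts in the *Ezh2* controls and 112, 301 and 236 in the knockouts, with overlap (0.73 ± 0.34, adjusted p 0.720). The other genes around *Nkx1-2* were not called, with *Oat* at -0.05, *Fam53b* at 0.20 and *Chst15* at 0.67 in the *Ehmt2* cross, and *Fgfr2*, whose annotated span includes *Nkx1-2*, was at 2.13 and not called.

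*Col4a5* starts 1.31 kb from the start of *Col4a6*, on the opposite strand, and its values are given above. Near *Ildr2*, *Mael* had 102 to 170 counts in the *Ezh2* controls and 310 to 430 in the knockouts. This was the same direction as *Ildr2* (1.54 ± 0.27, adjusted p 0.186, edgeR), but in the *Ehmt2* cross *Mael* was at 0.79 ± 0.57, opposite to *Ildr2*. *Tada1* was at -0.03, *Pogk* at 0.91 and *Gpa33* at 2.35 in the *Ehmt2* cross. In the *Ezh2* cross *Tada1* was at -0.56 and *Pogk* at 0.23, and *Gpa33* was not tested. For *Ebf1*, *Rnf145* (51.8 kb away, -0.02) and *Clint1* (844 kb away, 0.04) were near 0 in the *Ehmt2* cross. For *Epha7*, *Map3k7* was near 0 (0.06) but lies 2996.6 kb away. The listed genes on the other side of *Epha7* were pseudogenes with too few counts to test, so the segment close to *Epha7* was not measured.

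**Figure D5:**
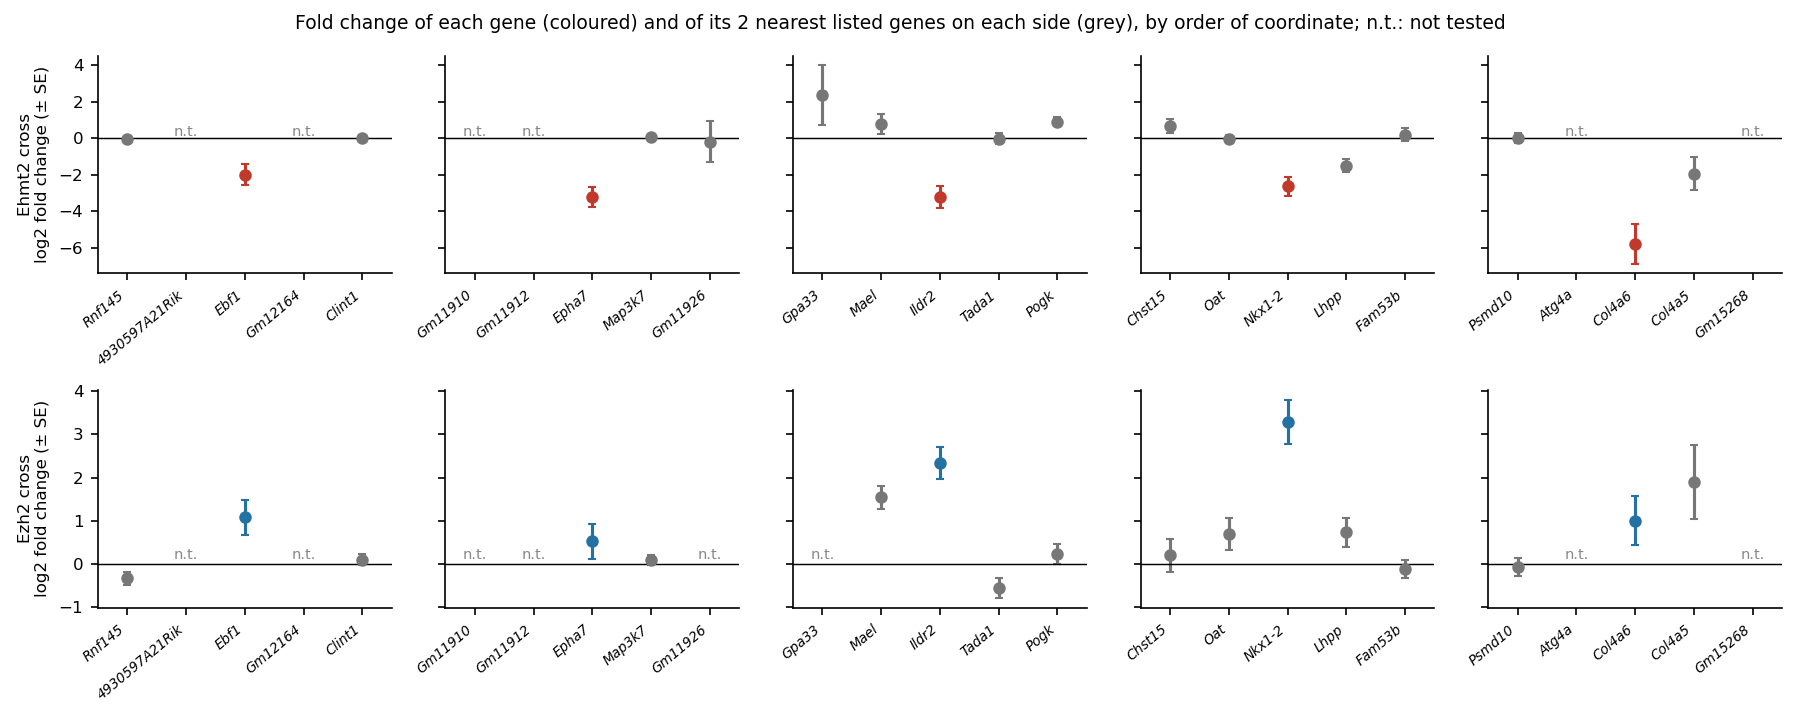
Log2 fold change, knockout minus control, with its SE for each gene (coloured) and its 2 nearest listed genes on each side (grey), in order of coordinate, for the *Ehmt2* cross (top) and the *Ezh2* cross (bottom). *Lhpp* beside *Nkx1-2* and *Col4a5* beside *Col4a6* are the neighbours below -1 in the *Ehmt2* cross.

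The genes whose level followed each of the 5 most closely over the 14 epiblasts were found by Pearson correlation on log2(CPM + 0.5), as a description, with no p. For *Nkx1-2* they were *Gria1* (r = 0.914), *Ptprd* (0.912) and *Ildr2* itself (0.882), and for *Ildr2* they were *Ptprd* (0.919), *Gm11131* and *H2-Q5*. *Ptprd*, a receptor-type tyrosine phosphatase of neurons, had group means of 2.40 CPM in *Ehmt2* controls, 0.821 in *Ehmt2* knockouts, 2.26 in *Ezh2* controls and 8.72 in *Ezh2* knockouts. *Col4a6* was closest to *Alcam* (0.930), a cell adhesion molecule, *Epha7* to *Mga* (0.905) and *Ebf1* to *Pxylp1* (0.908). Among the 5 themselves, r ran from 0.608 (*Ebf1* and *Nkx1-2*) to 0.882 (*Ildr2* and *Nkx1-2*). The points share the 4 groups, and a common position of the *Ehmt2* knockouts at the bottom of the range enters every value.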

How the data were processed

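Counts of 14 single E6.25 epiblasts were used, and 45 ChIP-seq and bisulfite samples of the series were not used here. The authors amplified 750 pg of RNA per epiblast, trimmed reads to 40 nt, aligned them with TopHat2 to GRCm38 and deposited raw counts per Ensembl 74 transcript from HTSeq-count. The strand setting is not given in the sources used here. A transcript absent from a file was set to 0, and a row of unaligned reads in the fourth *Ehmt2* control (12.6% of its file) and knockout (13.3%) was left out. Names and positions were taken from GENCODE vM21, which matched 70021 of 72515 transcripts (96.6%).

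Each cross was fitted alone with edgeR 4.0.16 (R 4.3.3): TMM factors, filterByExpr by genotype, and the quasi-likelihood test with Benjamini-Hochberg adjustment over all transcripts, with a term for comparison set (replicates 1 to 3, replicate 4) in the *Ehmt2* cross. A call needed an adjusted p under 0.05 and a log2 fold change beyond 1.4. SE was the fold change over the square root of F, and 95% intervals used 4 degrees of freedom, fewer than the test, so they are wider than the test implies. CPM was scaled by TMM over the 14 epiblasts. Genes were represented by the transcript with the highest mean count. Named genes were the 5 members, the genes of the related lists, 2 listed neighbours per side, the 3 genes most correlated with each member and the gene next in size of decrease. *Bcan* was named after its values were seen. The members and lists were chosen with earlier results of these data known. DESeq2 1.42.0, RLE factors, no filter, 1 transcript per gene, no set term, a replicate block and leaving out each epiblast were alternatives. On simulated counts, edgeR recovered 81% of 100 genes changed by a log2 of 2 in the *Ehmt2* design (13504 genes). In the *Ezh2* design (13667 genes) it recovered 67.7% of 99. False calls in the *Ehmt2* design were 1 with edgeR and 7 with DESeq2, and in the *Ezh2* design 3 and 20. The simulation used 1 transcript per gene, so these shares do not give the recovery of the fits over all transcripts.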

Additional observations from a re-analysis of the deposited data

Results flagged for a closer look

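For the main transcripts of 4 genes every *Ehmt2* knockout lay below, and every *Ezh2* knockout above, the mean of its controls. The 2 shorter coding forms of *Ebf1* did not show this, since *Ehmt2* knockout 4 was above control 4. The *Ezh2* log2 fold change minus the *Ehmt2* one was 6.75 for *Col4a6*, 5.92 for *Nkx1-2*, 5.55 for *Ildr2* and 3.07 for *Ebf1*, and these differences were not tested. Each includes the *Ehmt2* change on which the genes were chosen, so large values follow in part from the choice. For *Col4a6* the *Ezh2* part was 1.00, and the *Ehmt2* part of -5.75 rested on 1 count in the knockouts. The share of all genes with this pattern was not counted.

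A single epiblast stood far from the other 3 of its group in 10 of 38 groups examined, where chance gives about 1 in 20 for continuous values. In 7 of the 10 the other 3 epiblasts were all at 0 counts, where any count above 0 gives the largest possible gap, and the transcripts of a gene share reads, so the number of such groups is not read against that share. The gap to the nearest epiblast is given as a share of the range of the group. For *Ebf1* ENSMUST00000109268 it was 0.903 in the *Ehmt2* knockouts, where knockout 4 had 155 counts. It was 1 in the knockouts for *Ebf1* ENSMUST00000138452 and ENSMUST00000140822 (a single count each), for *Epha7* ENSMUST00000080934, ENSMUST00000108194 and ENSMUST00000149030 (knockout 2 alone above 0) and for *Col4a6* ENSMUST00000101205 (a single count). In the *Ehmt2* controls it was 0.903 for *Epha7* ENSMUST00000129029 and 0.922 for ENSMUST00000129912, with control 1 highest in both, and 1 for *Col4a6* ENSMUST00000137051.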

How the results depend on the processing

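All 5 main transcripts kept a log2 fold change below 0 in the *Ehmt2* cross and above 0 in the *Ezh2* cross under every alternative run. With each epiblast left out in turn, *Ehmt2* values ran from -2.56 to -1.57 for *Ebf1*, -3.71 to -2.79 for *Epha7*, -3.60 to -2.87 for *Ildr2*, -2.95 to -2.38 for *Nkx1-2* and -7.50 to -5.21 for *Col4a6*. Without replicate 4 of both groups, an alternative chosen after seeing the data, they were -2.56, -2.79, -2.87, -2.38 and -5.19. DESeq2 gave -6.04 for *Col4a6*. In the *Ezh2* cross, *Nkx1-2* and *Ildr2* passed the threshold with DESeq2 (3.29 and 2.34) and without a filter (3.28 and 2.33), and in no other alternative; the cause was not tested. DESeq2 called 2 list genes other than the 5 higher (*Nid1* and *Cdx2*) and 1 lower (*Ephb1*) in the *Ehmt2* cross, against 1 and 0.

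Over all transcripts, the 29 lower calls of the *Ehmt2* cross became 192 with DESeq2, 65 with no filter, 12 with 1 transcript per gene, 1 with no set term, 45 without replicate 4 of both groups and 7 to 48 with 1 epiblast left out, and the 220 higher calls became 544, 395, 112, 51, 391 and 94 to 399. The *Ezh2* cross had 0 higher calls, but 153 with DESeq2, 20 with no filter and up to 21 with 1 epiblast left out, and 6 lower calls, but 25 with DESeq2 and 0 with 1 transcript per gene.

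Replicate numbers were not taken to pair the epiblasts, since 1 same-numbered *Ehmt2* pair was near 0 and the labels name no shared litter. Deviations of same-numbered epiblasts correlated at 0.0614 to 0.416 (mean 0.200, pair 4 highest) in the *Ehmt2* cross, against a mean of -0.0535 for different numbers, and at -0.181 to 0.230 (mean 0.0249) in the *Ezh2* cross, against -0.0124. *Ehmt2* control 1 correlated best with another number. With a replicate block the *Ehmt2* cross had 6 lower and 99 higher calls and the *Ezh2* cross 3 higher ones, *Nkx1-2* was at 3.45 (adjusted p 0.0626, edgeR) and *Ildr2* at 2.40 (0.0667).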
